A study of Mus musculus with 10 samples.

Results

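Serine synthesis and the integrated stress response were described through 10 genes: Phgdh, Psat1, Psph, Shmt1, Shmt2, Mthfd2, Asns, Trib3, Ddit3 and Atf4. They were taken by symbol from the count tables, which list 24015 genes, and all 10 were found and passed the filter on low counts that left 14220 genes. The cells were mouse embryonic stem cells with a built-in Wnt/β-catenin reporter. They were derived from the inner cell mass of the blastocyst and grown with leukaemia inhibitory factor (LIF) on gelatin in every group. The 10 RNA-seq libraries form 5 groups of 2. The serum group is the original culture in serum with LIF. First 2i is culture in 2i with LIF for 5 to 6 passages, and long 2i the same medium for more than 13 passages. Serum return is more than 13 passages in 2i followed by 6 in serum with LIF. Second 2i is 13 passages in 2i, 6 in serum and 4 to 5 again in 2i. The labels do not say that it was grown from the sampled serum return culture. Rises and falls given below are therefore differences between the levels of groups. 2i blocks a pair of kinase pathways, with the GSK3 inhibitor at 3 µM and the ERK pathway inhibitor PD at 1 µM, and cells were split every 48 h. The labels name neither a line nor a clone, and nothing in them says that the 2 libraries of a group are separate cultures. The p-values therefore cover the spread between libraries alone, which may be technical.

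Serine is made from the glycolytic intermediate 3-phosphoglycerate in a short chain of steps, and its carbon then feeds the folate cycle, which supplies nucleotide synthesis. The integrated stress response joins several kinases that phosphorylate the initiation factor eIF2 when amino acids are short, the endoplasmic reticulum is loaded or mitochondria fail. General translation then slows while the transcription factor ATF4 is translated more, and ATF4 switches on genes of amino acid synthesis, transport and tRNA charging, among them those of serine synthesis. ATF4 is known to be controlled largely at translation, so its mRNA level is not a measure of the protein.

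Levels are CPM, edgeR's depth-scaled counts: a gene's counts over those in all tested genes of the library, adjusted by its TMM factor. Gene counts totalled 16809070 to 27766338 per library, and the fewest counts of any of the 10 genes in a library were 208, for Phgdh in long 2i. The medium showed in its known targets: Axin2, a Wnt target, read 2.68 and 7.77 CPM on average in the 2 serum phases and 68.7 to 85.3 CPM in the 3 phases in 2i. Defining markers of pluripotent cells (Pou5f1, Sox2, Nanog, Esrrb and Zfp42) were all detected and summed to 3787 to 5461 CPM per library, lowest in long 2i. Replicate 2 of serum return held more of the ribosomal RNA precursor Rn45s than the others (15476 CPM against 2496 to 5445). Leaving Rn45s out of the totals changed no call for the 10 genes.

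Promoters are shown for 3 genes. Phgdh fell furthest in long 2i. Psph, which catalyses the last step of the same chain, was also lowest there but changed less. Asns was higher in every phase in 2i than in either serum phase. The windows are the 250 bases before the RefSeq transcription start in GRCm38.p6, a later build than the mm9 used for counting, printed 5′ to 3′ on the gene's strand. Capitals mark the core of the C/EBP-ATF response element, TGATGNAA, searched on both strands.
Phgdh, chr3:98339970-98340219 (- strand): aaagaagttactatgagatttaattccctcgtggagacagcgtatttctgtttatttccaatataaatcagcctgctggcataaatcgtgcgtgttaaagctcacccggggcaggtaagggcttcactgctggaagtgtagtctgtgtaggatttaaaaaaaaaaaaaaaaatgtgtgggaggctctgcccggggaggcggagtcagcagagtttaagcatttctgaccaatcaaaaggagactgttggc
Psph, chr5:129787254-129787503 (- strand): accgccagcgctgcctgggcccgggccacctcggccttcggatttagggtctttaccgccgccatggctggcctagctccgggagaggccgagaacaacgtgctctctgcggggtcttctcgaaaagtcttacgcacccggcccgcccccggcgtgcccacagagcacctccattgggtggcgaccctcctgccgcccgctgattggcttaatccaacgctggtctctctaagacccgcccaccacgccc
Asns, chr6:7693210-7693459 (- strand): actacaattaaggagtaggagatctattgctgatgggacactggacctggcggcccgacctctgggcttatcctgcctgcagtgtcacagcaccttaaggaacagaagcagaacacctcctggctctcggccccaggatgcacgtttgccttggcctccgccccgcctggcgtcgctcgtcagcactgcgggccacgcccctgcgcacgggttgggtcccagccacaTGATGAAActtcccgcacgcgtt

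The core was found in 2 of the 10 genes when the 50 bases after the start were included, which makes windows of 300 bases. In Asns it read TGATGAAA, beginning at -23 from the start, and in Trib3 it lay on the other strand, reading TTACATCA on the gene's strand from position 15 after the start. Of all 27025 genes with promoter windows of that length, 4.51% held it. The E-box CACGTG, bound by MYC among others, was in none of the 10 genes and in 8.09% of all genes. CCAAT on either strand, searched after the sequences had been seen, was in 7 of the 10 genes and in 41.1% of all genes, in Phgdh at -193 and -23 and in Psph at -78 and -48. None of these motifs contains another, and a match is only a match of letters in this window. GC content was 47.7% in Phgdh, 65% in Psph and 61.7% in Asns, against a median of 52.7% over all windows.

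**Figure D1:**
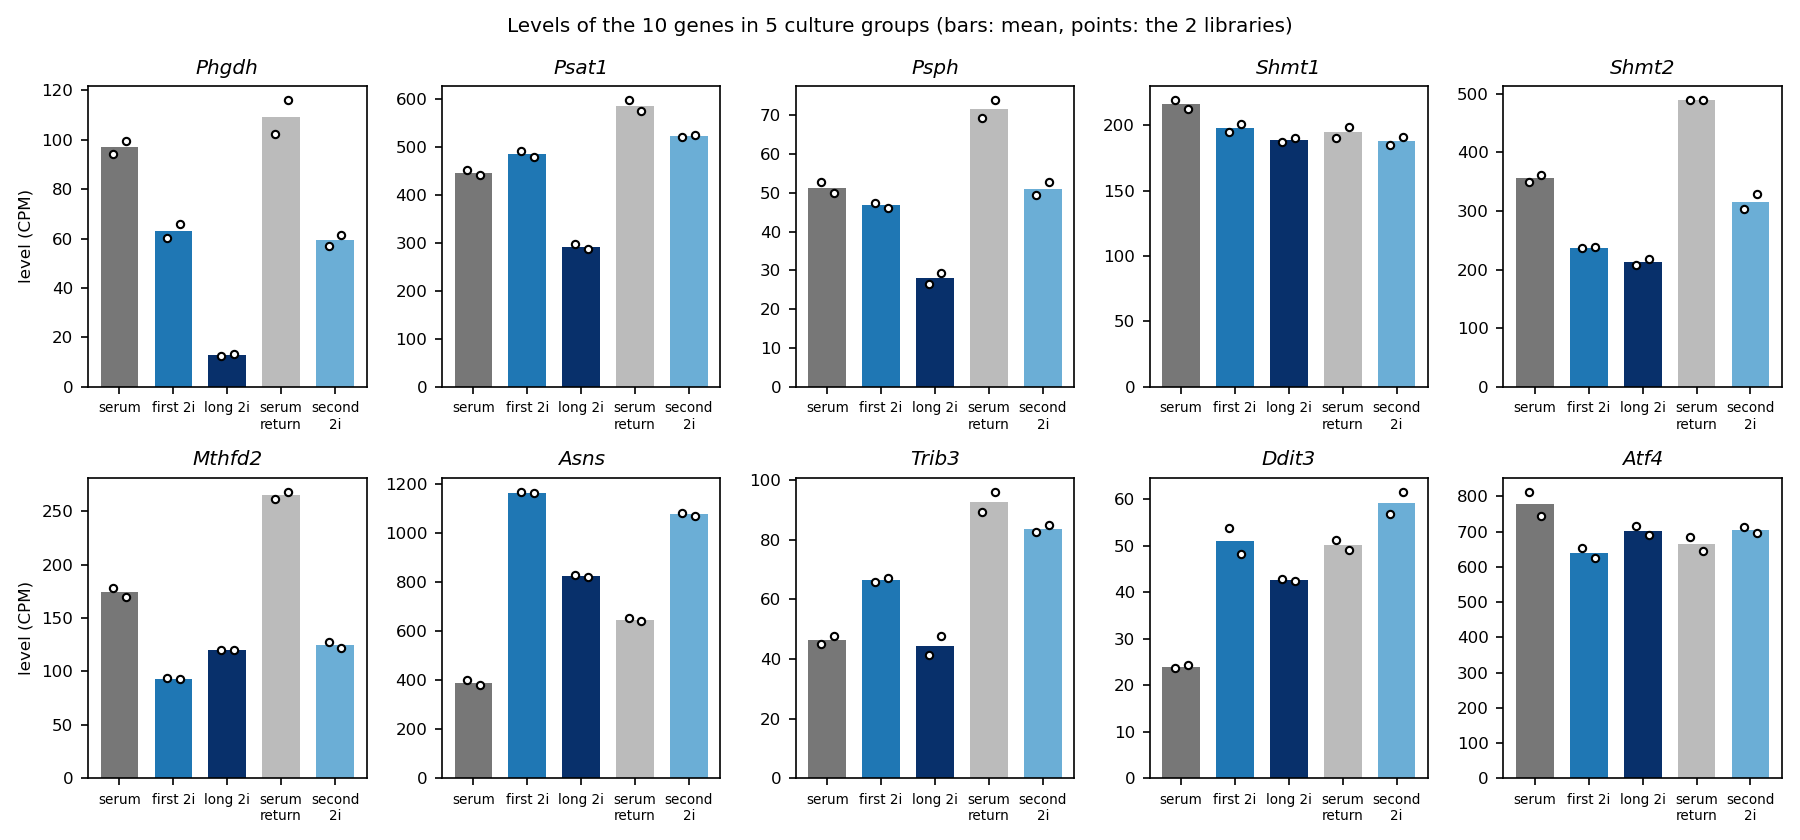
Levels (CPM, linear axes from 0) of the 10 genes in the 5 culture groups. Bars are group means and points the 2 libraries. Phgdh, Psat1 and Psph were lowest in long 2i, Asns was highest in first 2i and lowest in serum, and Shmt1 and Atf4 varied least.

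The 3 enzymes of serine synthesis were lowest in long 2i by group means, as were 25.4% of all tested genes. Phgdh, the dehydrogenase that opens the pathway, read 94.3 and 99.6 CPM in serum, 60.3 and 65.7 in first 2i, 12.3 and 13.1 after long 2i, 102 and 116 on serum return and 56.9 and 61.6 in second 2i. Neither long 2i library came near any other library, whereas first and second 2i overlapped. Between first and long 2i Phgdh fell 4.94-fold (log2 fold change -2.31 ± 0.089 SE, edgeR adjusted p = 1.87e-14), and it stood 7.61-fold below serum (adjusted p = 5.25e-17). On return to serum it rose 8.56-fold (log2 3.10 ± 0.086 SE, edgeR adjusted p = 2e-17). In the order of its 5 levels, second and first 2i did not differ beyond their spread (adjusted p = 0.368). Serum and serum return, with an adjusted p of 0.0627, passed in some other fits: without a filter (0.0463), without replicate 1 of serum return (0.0265) and with the title series as a block (0.00158).

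Psat1, the aminotransferase of the next step, read 452 and 441 CPM in serum, 492 and 480 in first 2i, 297 and 288 after long 2i, 598 and 576 on serum return and 522 and 525 in second 2i. The libraries of each group lay apart from those of every other group. It fell 1.66-fold from first to long 2i (edgeR adjusted p = 2.84e-11) and rose 2.01-fold on return to serum (adjusted p = 4.97e-14), where it was highest. First and second 2i were neighbours in the order of its levels and did not pass the test (adjusted p = 0.0696).

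Psph, the phosphatase that releases serine, read 52.8 and 49.9 CPM in serum, 47.4 and 46.1 in first 2i, 26.5 and 29.3 after long 2i, 69.4 and 73.8 on serum return and 49.3 and 52.9 in second 2i. Long 2i was below all other libraries and serum return above them, and serum and second 2i overlapped. The fall from first to long 2i was 1.67-fold (edgeR adjusted p = 4.38e-08) and the rise on return 2.56-fold (adjusted p = 8.71e-13). First 2i, second 2i and serum, the 3 levels in the middle, did not pass between neighbours (adjusted p = 0.164 and 0.938). Of the chain, the first enzyme thus changed more than the other two: 4.94-fold against 1.66-fold and 1.67-fold between first and long 2i, a difference among genes that was not itself tested.

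Of the enzymes that pass serine's carbon to folate, the mitochondrial pair was higher in both serum phases than in any phase in 2i, and the cytosolic enzyme varied little. Shmt2, the mitochondrial serine hydroxymethyltransferase, read 349 and 362 CPM in serum, 236 and 239 in first 2i, 208 and 217 after long 2i, 489 and 489 on serum return and 303 and 329 in second 2i. The 4 serum libraries lay above all 6 libraries from 2i. It fell 1.5-fold from serum to first 2i (edgeR adjusted p = 1.84e-09) and rose 2.30-fold from long 2i to serum return (adjusted p = 1.35e-14). All 4 steps in the order of its levels, long 2i, first 2i, second 2i, serum and serum return, passed. The lowest of them (adjusted p = 0.0101) was lost when replicate 1 of long 2i was left out (0.0714), and that from second 2i to serum (adjusted p = 0.00494) without replicate 1 of second 2i (0.128).

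Mthfd2, a mitochondrial dehydrogenase and cyclohydrolase of the folate cycle, read 179 and 170 CPM in serum, 93.5 and 92.8 in first 2i, 120.2 and 120.5 after long 2i, 262 and 268 on serum return and 128 and 122 in second 2i. Here too the serum libraries lay above all from 2i, but the lowest group was first 2i and not long 2i. It fell 1.87-fold from serum to first 2i (edgeR adjusted p = 3.15e-12), rose 1.29-fold from first to long 2i (adjusted p = 4.82e-06) and rose 2.20-fold from long 2i to serum return (adjusted p = 4.5e-14). Long and second 2i did not differ beyond their spread (adjusted p = 0.415). Shmt1, the cytosolic counterpart of Shmt2, ranged only from 185 CPM in second 2i to 219 in serum, and its group means differed by at most 1.15-fold. Serum was its highest group, and no neighbours among the other 4 passed the test (edgeR adjusted p = 0.421 to 0.946).

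Asns, which makes asparagine and is a classic target of ATF4, moved with the medium in the opposite direction to Shmt2 and Mthfd2. It read 402 and 378 CPM in serum, 1167 and 1161 in first 2i, 826 and 821 after long 2i, 651 and 642 on serum return and 1080 and 1069 in second 2i. All 6 libraries from 2i lay above the 4 from serum, and serum return lay above serum. The rise in first 2i was 2.98-fold (log2 1.58 ± 0.046 SE, edgeR adjusted p = 3.73e-17), and between first and long 2i it fell 1.41-fold (adjusted p = 7.31e-09). After the return it was still 1.66-fold above the original serum culture (adjusted p = 8.51e-10). The difference between first and second 2i, 1.08-fold, had an adjusted p of 0.0489 and did not pass when any 1 of the 4 libraries was left out (0.13 to 0.202), with RLE normalization (0.0553) or without a filter (0.0783).

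Among the stress regulators, Ddit3 and Trib3 were 1.43-fold to 2.47-fold higher than serum in first 2i, serum return and second 2i, while Atf4 mRNA was highest in serum. Ddit3 encodes CHOP, a transcription factor of prolonged stress, and read 23.6 and 24.4 CPM in serum, 53.7 and 48.3 in first 2i, 42.9 and 42.5 after long 2i, 51.3 and 49.1 on serum return and 56.9 and 61.6 in second 2i. The original serum culture stood apart from the other 8 libraries. Ddit3 rose 2.13-fold in first 2i (log2 1.09 ± 0.077 SE, edgeR adjusted p = 8.14e-11), and in serum return it was 2.09-fold above serum (adjusted p = 4.91e-09). Serum return and first 2i did not differ beyond their spread (adjusted p = 0.79).

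Trib3, a pseudokinase induced by ATF4 and CHOP that restrains ATF4, read 45.1 and 47.7 CPM in serum, 65.8 and 67.2 in first 2i, 41.2 and 47.7 after long 2i, 89.3 and 96 on serum return and 82.5 and 84.8 in second 2i. Serum and long 2i overlapped (edgeR adjusted p = 0.493), and the other groups lay above both. It fell 1.49-fold from first to long 2i (adjusted p = 6.48e-07) and rose 2.08-fold on return to serum (adjusted p = 2.6e-11), to 2.00-fold the original serum level (adjusted p = 3.99e-09). Second 2i was below serum return with an adjusted p of 0.0599, which became 0.0442 without replicate 1 of serum return, 0.0498 with RLE normalization and 0.0487 when only these groups were fitted.

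Atf4, the transcription factor itself, read 813 and 745 CPM in serum, 653 and 624 in first 2i, 715 and 690 after long 2i, 686 and 646 on serum return and 713 and 695 in second 2i. Its group means spanned 1.22-fold, the narrowest range of the 10 genes after Shmt1. The fall from serum to first 2i was 1.22-fold (log2 -0.29 ± 0.051 SE, edgeR adjusted p = 4.35e-05). In the order of its levels, first 2i, serum return, long 2i and second 2i did not pass between neighbours (adjusted p = 0.182 to 0.956). The levels of Trib3, Ddit3 and Asns thus spanned 2.08-fold, 2.47-fold and 2.98-fold between their lowest and highest group means, and that of Atf4 mRNA 1.22-fold.

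**Figure D2:**
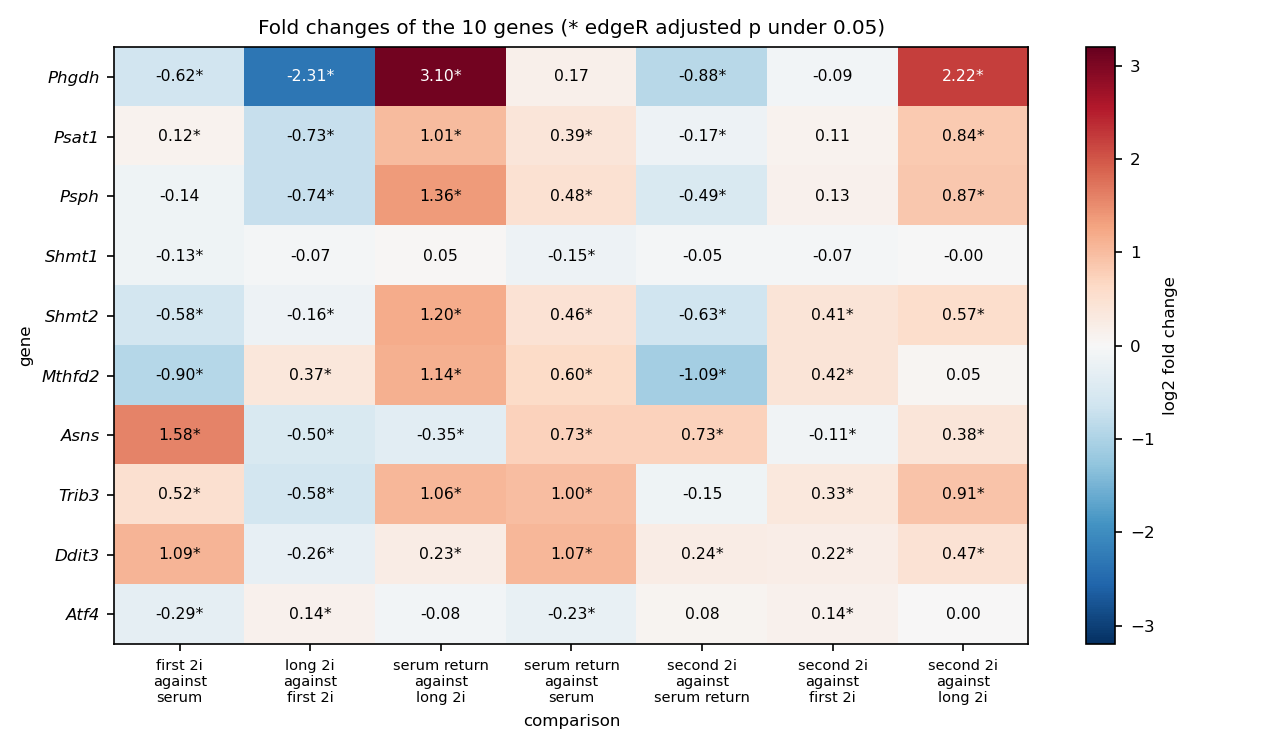
Log2 fold changes of the 10 genes in 7 comparisons, as fitted by edgeR; an asterisk marks an adjusted p under 0.05. The column of serum return against long 2i holds the largest rise (Phgdh, 3.10), and in serum return against serum 7 genes are higher and 2 lower.

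How serum cells changed over their first passages in 2i split the genes. Asns, Ddit3 and Trib3 rose 2.98-fold, 2.13-fold and 1.43-fold, and Psat1 by 1.09-fold. Mthfd2, Phgdh, Shmt2 and Atf4 fell 1.87-fold, 1.54-fold, 1.5-fold and 1.22-fold, and Shmt1 1.09-fold. Psph did not pass (edgeR adjusted p = 0.0938). By edgeR's quasi-likelihood test and Benjamini-Hochberg adjusted p, 9 of the 10 genes were called, where 70% of all tested genes were, 35.1% as higher and 34.9% as lower, and the genes' median log2 fold change was -0.13 against 0.01 over all tested genes. The call for Psat1 (adjusted p = 0.0211) was lost without replicate 1 of first 2i (0.117) or replicate 2 of serum (0.101). That for Shmt1 (adjusted p = 0.0282) was lost without replicate 1 of serum (0.143) or of first 2i (0.185). Marker sums of other cells moved in the same comparison, from serum to first 2i: trophectoderm from 83.9 and 87.3 to 153 and 154 CPM, blood and endothelium from 59.7 and 60.2 to 119 and 129, and endoderm from 178 and 192 to 296 and 298. The fibroblast list went from 30.8 and 34 to 11 and 13.3 CPM. Single markers did not all follow these sums. Of 5 tested for blood and endothelium 2 were called higher and 2 lower, with a median log2 fold change of -0.11. Trophectoderm had 5 of 7 higher and 1 lower, endoderm 3 of 5 higher and 1 lower, and fibroblasts 1 of 6 higher and 3 lower. Their part in the result was not tested.

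From first to long 2i, 7 of the 10 genes fell and Mthfd2 and Atf4 rose. Phgdh fell 4.94-fold, Psph 1.67-fold, Psat1 1.66-fold, Trib3 1.49-fold, Asns 1.41-fold, Ddit3 1.2-fold and Shmt2 1.12-fold, and Shmt1 did not pass (edgeR adjusted p = 0.233). Of all tested genes 61.2% were called, 30.8% as lower and 30.4% as higher, and the median log2 fold change of the 10 was -0.38 against 0.00. The call for Ddit3 (adjusted p = 0.00477) was lost without replicate 1 of first 2i (0.0853). The call for Shmt2 was lost without replicate 1 of long 2i (0.0714). That for Atf4 (adjusted p = 0.0247) was lost without the same library (0.174) or replicate 2 of first 2i (0.204). Markers of other cells moved with this comparison. Of the 5 pluripotency markers 4 fell. The 6 neuroectoderm markers summed to 68.9 and 69.5 CPM in first 2i, against 321 and 322 after long 2i, and the 8 endoderm markers to 296 and 298 and 472 and 474 CPM. Nearly all of the endoderm sum was Sparc (291 and 293, then 459 and 459 CPM), which other cells also express, while Sox17 stayed under 1 CPM. The trophectoderm sum went down from 153 and 154 to 108 and 111 CPM and that of blood and endothelium from 119 and 129 to 76 and 80.6. Gene by gene, trophectoderm had 2 of 7 tested markers higher and 3 lower, and blood and endothelium 2 of 5 higher and 1 lower. Hbb-y was at 0 in every library, and the fibroblast list summed to 9.58 to 13.3 CPM in the 4 libraries. The part of these cells in the result was not tested, and in bulk RNA fewer cells of a type and less RNA per cell cannot be told apart. Against original serum, long 2i had 7 of the 10 genes lower and Asns and Ddit3 higher, where 68.9% of all tested genes were called, 33.9% as lower and 35.1% as higher. Its call for Atf4 (adjusted p = 0.0133) was lost without replicate 1 of serum (0.216) or replicate 2 of long 2i (0.102).

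When long 2i was followed by serum, 7 of the 10 genes rose and Asns fell. The rises were 8.56-fold for Phgdh, 2.56-fold for Psph, 2.30-fold for Shmt2, 2.20-fold for Mthfd2, 2.08-fold for Trib3, 2.01-fold for Psat1 and 1.18-fold for Ddit3, and Asns fell 1.27-fold. Shmt1 and Atf4 did not pass (edgeR adjusted p = 0.421 and 0.182). Of all tested genes 71.4% were called, 35.4% as higher and 36% as lower. The median log2 fold change of the 10 genes was 1.03 against -0.01 over all tested genes. The call for Ddit3 (adjusted p = 0.00702) was lost without replicate 1 of serum return (0.0622). Set against first 2i, serum return had 6 of the 10 genes higher, Mthfd2 the most at 2.84-fold, and Asns 1.8-fold lower, where 68% of all tested genes were called, 34.3% as higher and 33.7% as lower. From long 2i to serum return the neuroectoderm sum went from 321 and 322 to 78 and 87.5 CPM. Endoderm went from 472 and 474 to 238 and 239, and trophectoderm from 108 and 111 to 48.3 and 54.2. The fibroblast list went from 9.58 and 10.6 to 47.2 and 53.4. Of the tested markers, neuroectoderm had 2 higher and 4 lower, and endoderm 2 higher and 3 lower. Trophectoderm had 4 lower and fibroblasts 4 higher, with none the other way. Their part in the result was not tested.

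Whether the return restored the starting levels was asked by comparing serum return with the original serum culture. It left 7 of the 10 genes higher and 2 lower, whereas 31% of all tested genes were called, 16.5% as higher and 14.5% as lower. The count over all tested genes, 4407, fell in every fit with 1 library left out. In some of these fits fewer of the 10 genes were called too. Ddit3 was 2.09-fold, Trib3 2.00-fold, Asns 1.66-fold, Mthfd2 1.52-fold, Psph 1.39-fold, Shmt2 1.37-fold and Psat1 1.31-fold higher. The median log2 fold change was 0.47 against 0.02 over all tested genes. In each of the 7, both libraries of serum return lay above both of serum, as did those of Phgdh, at 1.12-fold, which did not pass (adjusted p = 0.0627, but 0.0265 without replicate 1 of serum return, 0.0463 without a filter and 0.00158 with the title series as a block). Both libraries of serum return lay above both of serum in 33.8% of all tested genes. Atf4 was 1.17-fold lower (adjusted p = 0.00217, and 0.0509 without replicate 1 of serum). Shmt1 was 1.11-fold lower (adjusted p = 0.025), a call lost without replicate 1 of serum (0.131), replicate 2 of serum (0.0521) or replicate 1 of serum return (0.213). The 9 fibroblast and feeder markers summed to 30.8 and 34 CPM in serum and 47.2 and 53.4 in serum return, with Col3a1, Lum and Postn below the filter. The 8 endoderm markers summed to 178 and 192 and 238 and 239 CPM. Trophectoderm went down from 83.9 and 87.3 to 48.3 and 54.2 CPM. Blood and endothelium went from 59.7 and 60.2 to 75.6 and 81, with 1 of 5 tested markers called. Neuroectoderm went from 74.3 and 76 to 78 and 87.5. Their part in the result was not tested.

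In second 2i, Mthfd2 was 2.12-fold, Phgdh 1.84-fold, Shmt2 1.55-fold, Psph 1.40-fold and Psat1 1.12-fold lower than in serum return. Asns was 1.66-fold and Ddit3 1.18-fold higher. That made 7 of the 10 genes called, against 65.6% of all tested genes, 33.3% as lower and 32.3% as higher. From serum return to second 2i the trophectoderm sum went from 48.3 and 54.2 to 113 and 118 CPM. Endoderm went from 238 and 239 to 355 and 356, and neuroectoderm from 78 and 87.5 to 114 and 122. The fibroblast list went from 47.2 and 53.4 to 20.2 and 22.1. Of 5 tested endoderm markers 1 rose and 2 fell, and of 6 for neuroectoderm 3 rose and 3 fell. The part of these cells was not tested. The call for Ddit3 (edgeR adjusted p = 0.00573) was lost without replicate 2 of serum return (0.0504) or of second 2i (0.0834), and Shmt1, Atf4 and Trib3 did not pass. Compared with first 2i, second 2i had 5 genes higher and 1 lower, where 37.7% of all tested genes were called, 18.1% as higher and 19.6% as lower. Mthfd2 was 1.34-fold, Shmt2 1.33-fold and Trib3 1.26-fold higher, and these 3 calls were kept without any 1 library. The remaining calls, for Asns, Ddit3 and Atf4, were each lost in at least 2 such fits: Ddit3 without replicate 2 of first 2i (0.226) or of second 2i (0.206), and Atf4 without any 1 of the 4 libraries (0.053 to 0.213). Compared with long 2i, second 2i had 7 of the 10 genes higher by edgeR, and Mthfd2, Shmt1 and Atf4 did not pass, where 56.4% of all tested genes were called, 28.1% as higher. Phgdh was 4.65-fold higher in second than in long 2i. Against original serum 9 of the 10 were called (66.4% of all tested genes), 4 higher and 5 lower (33.6% and 32.8% of all tested genes). Of these, Shmt2 was not called without replicate 1 of second 2i (0.128). Atf4 was not called without replicate 1 of serum (0.249) or replicate 2 of second 2i (0.113).

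**Figure D3:**
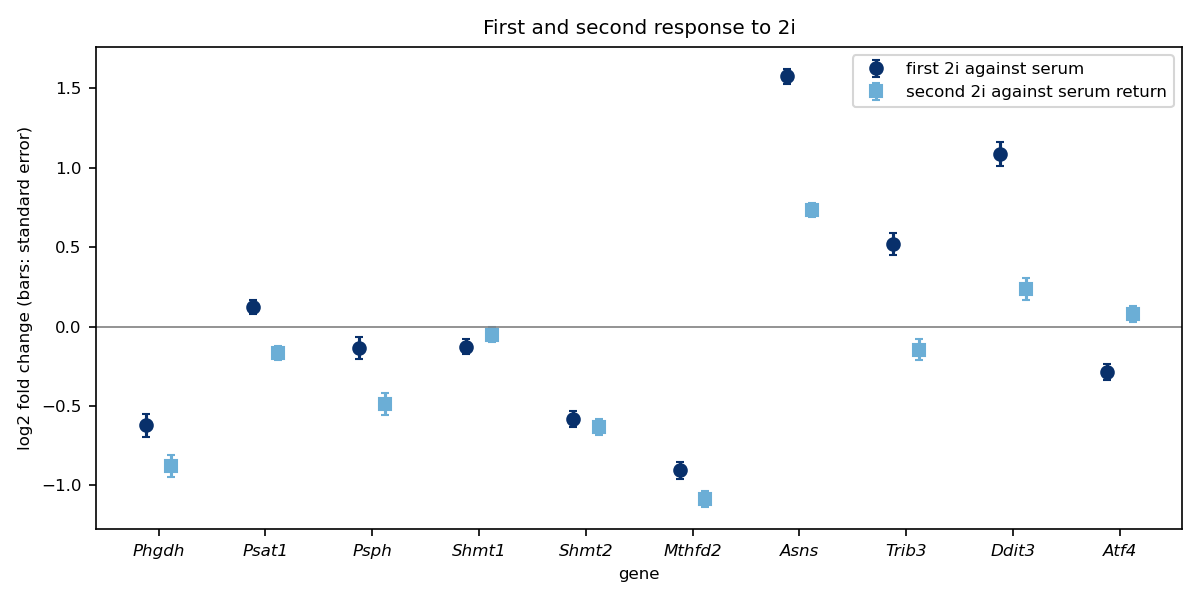
Log2 fold change (points, with bars of 1 standard error) of each gene in first 2i against serum and in second 2i against serum return. Asns rose by 1.58 the first time and 0.73 the second, and Ddit3 by 1.09 and 0.24, while Shmt2 moved by -0.58 and -0.63.

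The genes that had risen in first 2i rose less or fell the second time: Asns and Ddit3 rose by 0.73 and 0.24 on the log2 scale, Psat1 fell by 0.17, and Trib3, at -0.15, did not pass. The difference, second minus first response, tested as an interaction, was -0.84 ± 0.064 SE on the log2 scale for Asns (edgeR adjusted p = 5.34e-09), -0.85 ± 0.10 for Ddit3 (adjusted p = 3.21e-06) and -0.67 ± 0.097 for Trib3 (adjusted p = 2.14e-05). Psph and Psat1 differed by -0.35 and -0.29 (adjusted p = 0.00779 and 0.00128), and Atf4 by 0.37 (adjusted p = 0.000438). For Phgdh the difference of -0.26 (adjusted p = 0.0458) did not pass without replicate 1 of serum (0.133), replicate 2 of first 2i (0.202), replicate 2 of serum return (0.227) or replicate 1 of second 2i (0.175), nor with RLE normalization (0.0525) or DESeq2 (0.116). Mthfd2 did not pass (adjusted p = 0.0543, and 0.0416 without replicate 1 of serum), nor did Shmt1 and Shmt2 (adjusted p = 0.41 and 0.61). In all, 7 of the 10 genes were called, 1 with a positive and 6 with a negative difference, where 39.4% of all tested genes were, 18.4% and 21%. The starting points of both responses differ, since 7 of the 10 genes were higher in serum return than in serum. The labels give 5 to 6 passages for the first exposure and 4 to 5 for the second, and the time in 2i cannot be told apart from the order of exposure.

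Lowest in long 2i and highest in serum return was the order of 5 of the 10 genes by group means, Phgdh, Psat1, Psph, Shmt2 and Trib3, and of 9.08% of all tested genes. For Phgdh, serum return did not pass against serum (edgeR adjusted p = 0.0627). For Trib3, neither long 2i against serum (0.493) nor second 2i against serum return (0.0599) passed. The order was read from these same levels, so its share among the 10 is a description and not a test. In lists of related genes that order was that of 10 of 20 aminoacyl-tRNA synthetases, which charge tRNAs and many of which ATF4 is known to induce, and of 9 of 18 other stress response targets. It was that of 4 of 19 genes of one-carbon and glycine metabolism and 3 of 11 of non-essential and sulphur amino acid synthesis. It held for 2 of 9 ATF4-linked transporters, 1 of 17 genes of the eIF2 kinases, eIF2 and eIF2B, 1 of 16 endoplasmic reticulum chaperones and 1 of 8 mitochondrial chaperones and proteases.

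**Figure D4:**
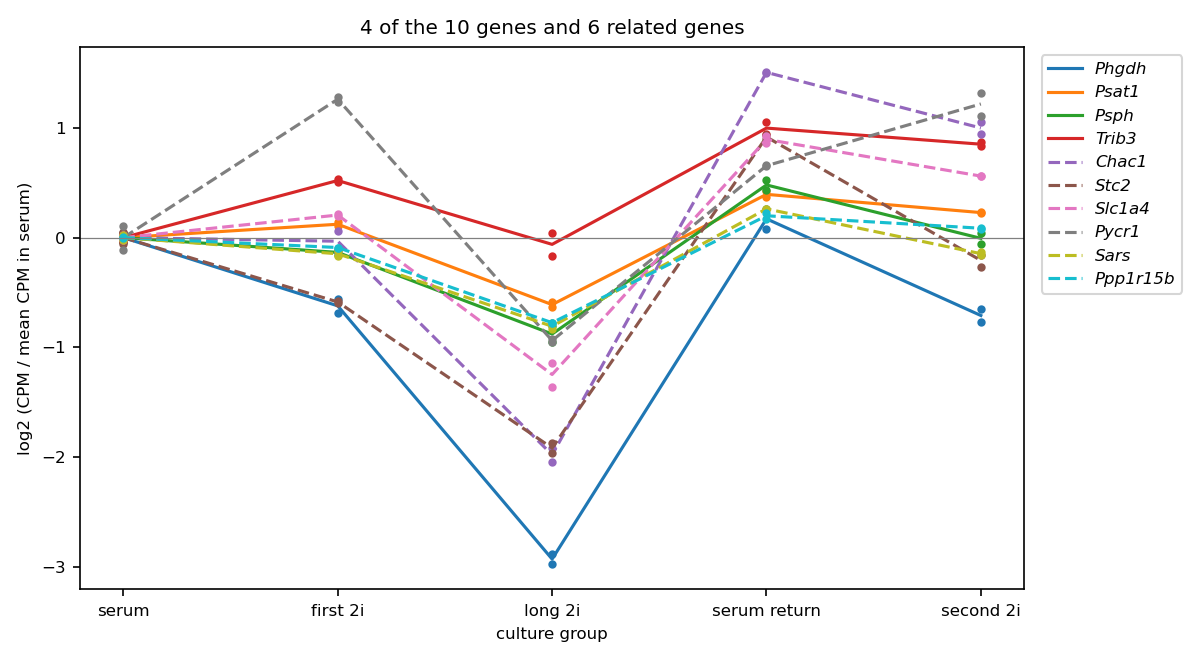
Log2 ratio of CPM to the mean in serum for 4 of the 10 genes (solid) and 6 related genes (dashed) that fell and were among the 3 largest changes of their lists in long against first 2i. Lines join group means and points are libraries. The shared dip in long 2i is set by that choice. Pycr1 was highest in first 2i where the other 9 were highest in serum return, which also depends on the genes drawn. Not all genes that met the rule are shown: Dars, Cth, Aldh1l1 and Aldh1l2 were highest in first 2i and Nupr1 in second 2i.

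Of 20 tRNA synthetases 15 fell and 1 rose from first to long 2i, with a median log2 fold change of -0.23, where 30.8% of all tested genes fell and 30.4% rose. On return to serum 18 rose and 1 fell (median 0.44), against 35.4% and 36% of all tested genes. In serum return 12 were higher and 3 lower than in original serum, against 16.5% and 14.5%; the lists that follow are read against the same shares. Dars, the aspartate synthetase and the one that fell the most, read 470 and 453 CPM in first 2i, 250 and 221 after long 2i and 373 and 359 in serum return, so it was highest in first 2i. Sars, which charges the tRNA of serine, went from 389 and 401 CPM in first 2i to 245 and 254 in long 2i and 524 and 525 in serum return. Eprs, the synthetase for glutamate and proline, went from 868 and 870 to 492 and 499 and then 961 and 943 CPM. In first 2i against serum the list was mixed, 5 higher and 9 lower.

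Of 18 other stress response targets tested, 8 fell and 4 rose from first to long 2i, and 14 rose and 2 fell on return to serum. Against original serum 14 were higher in serum return by edgeR and the other 4 did not pass, with a median log2 fold change of 0.79. Chac1, which degrades glutathione and is induced by ATF4, read 19.6 and 19.6 CPM in serum, 17.9 and 20.5 in first 2i, 5.2 and 4.75 after long 2i, 55.5 and 56 on serum return and 37.8 and 40.7 in second 2i. It was lowest in long 2i, as Phgdh was, and first 2i against serum did not pass (edgeR adjusted p = 0.755). Stc2, a secreted stanniocalcin, read 8.79 and 8.72 CPM in first 2i, 3.37 and 3.59 after long 2i and 24.5 and 25.1 in serum return. Nupr1, a small stress-induced chromatin protein, was high in first 2i (102 and 106 CPM) and second 2i (124 and 125) and low in serum (28.4 and 24.2) and long 2i (27.5 and 29.1).

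Amino acid synthesis beyond serine fell in 7 and rose in 1 of 11 genes from first to long 2i, and on return 10 rose and 1 fell. Pycr1, the last enzyme of proline synthesis, went from 55 and 56.9 CPM in first 2i to 12.1 and 12.3 in long 2i and to 50.5 and 58.2 in second 2i. Cth and Cbs, the transsulphuration enzymes that use serine to make cysteine, rose 3.76-fold and 5.11-fold in first 2i. Cbs stayed high in long 2i, at 65.3 and 65.6 CPM against 17 and 15.5 in serum, and Cth fell from 159 and 145 to 68.3 and 62.7 CPM. Glul, glutamine synthetase, read 771 and 760 CPM in serum and 184 and 187 in first 2i.

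One-carbon and glycine metabolism had no shared direction, with 7 higher and 9 lower of 19 in first 2i and 4 higher and 8 lower from first to long 2i. Aldh1l1, which oxidizes 10-formyl-tetrahydrofolate in the cytosol, rose 8.93-fold in first 2i, from 15.1 and 15 to 132 and 136 CPM, and fell to 52.5 and 54.7 in long 2i. Gldc, the glycine decarboxylase that splits glycine in mitochondria, had 49.8 and 49.5 CPM in serum, 21.9 and 19.5 in first 2i, 18.2 and 17.8 after long 2i and 75.6 and 75.5 in serum return, so that its serum libraries lay above all from 2i as those of Shmt2 and Mthfd2 did. Of 9 transporters linked to ATF4, 5 rose and 2 fell from first to long 2i (median log2 fold change 0.18), and 8 were higher and 1 lower in serum return than in serum. In first 2i 3 were higher and 5 lower than in serum (35.1% and 34.9% of all tested genes). In long 2i 2 were higher and 5 lower than in serum (35.1% and 33.9% of all tested genes). Slc7a1, a carrier of cationic amino acids, rose from 190 and 199 CPM in first 2i to 266 and 274 in long 2i. Slc1a4, a carrier of serine and alanine, went against most of the list and fell from 48.5 and 47.9 CPM in first 2i to 16.3 and 18.9 in long 2i and read 76.1 and 79.4 in serum return.

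Lists of other stress arms are given by their counts; their courses were not tested against each other. Of 16 endoplasmic reticulum chaperones and regulators 9 rose and 1 fell from first to long 2i, and 3 rose and 10 fell on return to serum. The rise followed a fall: in first 2i 4 were higher and 11 lower than in serum (35.1% and 34.9% of all tested genes). In long 2i 6 were higher and 4 lower than in serum (35.1% and 33.9% of all tested genes), with a median log2 fold change of 0.05. Against original serum 7 were lower in serum return by edgeR and the other 9 did not pass. Dnajb11, a co-chaperone of the endoplasmic reticulum, read 82.1 and 77.1 CPM in first 2i, 154 and 150 after long 2i and 83.5 and 83 in serum return. Pdia4, a disulphide isomerase, read 201 and 197 CPM in first 2i, 319 and 297 after long 2i and 132 and 143 in serum return. Of 17 genes of the eIF2 machinery 8 rose and 3 fell from first to long 2i, and 2 rose and 6 fell on return to serum. Of 8 mitochondrial chaperones and proteases 3 rose and 1 fell, and on return 4 rose and 2 fell. Eif2b5, the catalytic subunit of the exchange factor eIF2B, rose from 306 and 294 to 500 and 521 CPM. Ppp1r15b, which brings phosphatase to eIF2, fell from 372 and 372 to 232 and 231 CPM. The kinase gene Eif2ak4, known as GCN2, which senses uncharged tRNA, had group means of 49.9 to 60.6 CPM over the 5 groups. Eif2ak3, known as PERK, was lower in first 2i than in serum (30.3 and 33.3 against 49.7 and 56 CPM), and so was Eif2ak1, the haem-regulated kinase (49.7 and 57.3 against 81.2 and 84.9 CPM).

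**Figure D5:**
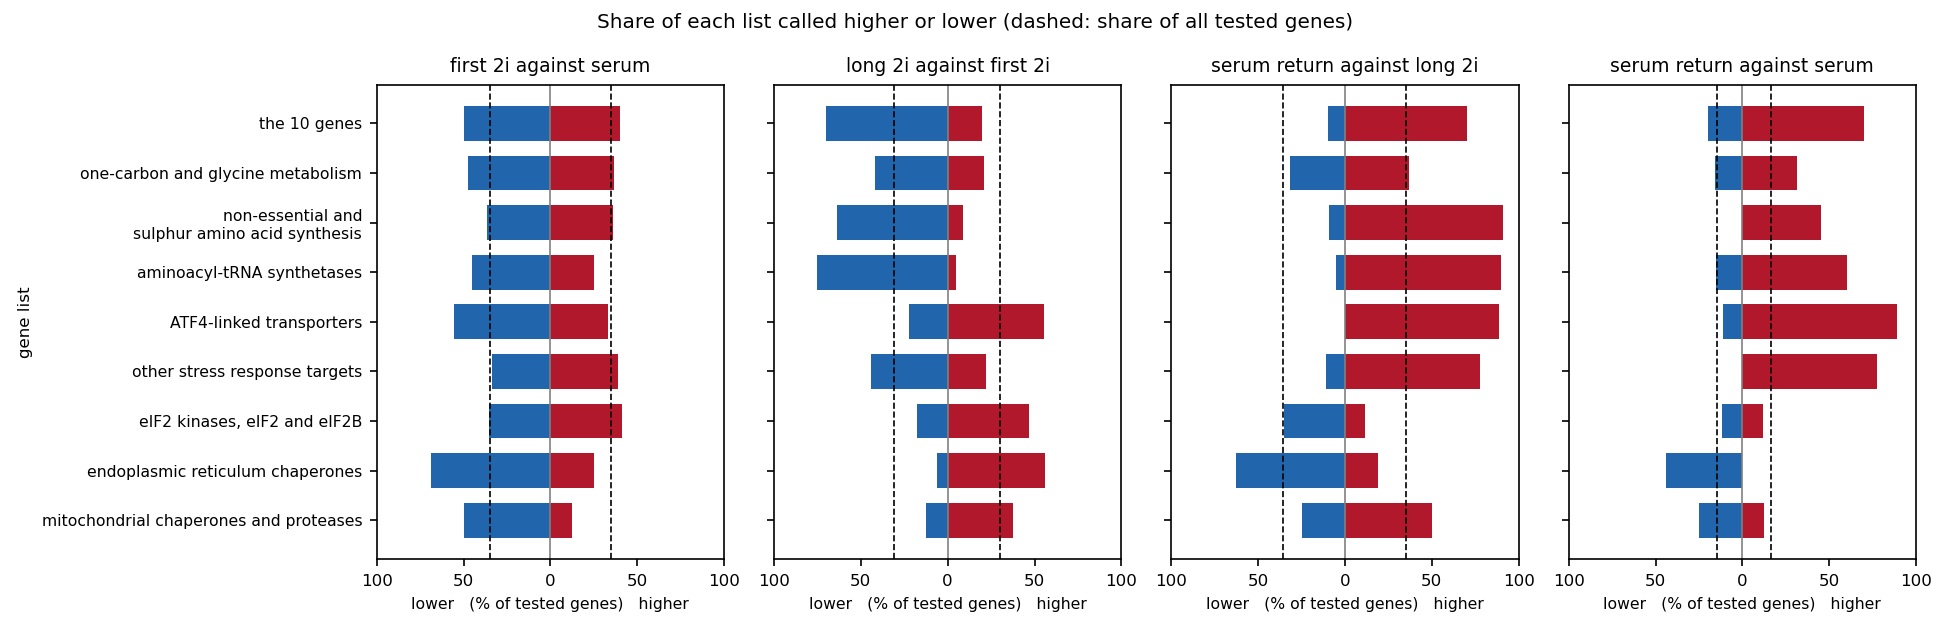
Share of tested genes in each list called higher (right, red) or lower (left, blue) by edgeR in 4 comparisons. Dashed lines are the shares of all 14220 tested genes; in serum return against serum, 7 of the 10 genes, 14 of 18 other stress targets and 8 of 9 transporters were higher, against 16.5% of all genes.

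The genes most like each of the 10 were sought among the 10450 tested genes that averaged 5 CPM or more, by the root-mean-square difference of centred log2 CPM over the 10 libraries. The 3 nearest to Psat1 were Eprs (0.077), Ppp1r15b (0.081) and Klf10 (0.086), and those nearest to Psph were Sars (0.11), Jdp2 (0.11) and Ankzf1 (0.12). Trib3 had St6galnac3 (0.15), Gpt2 (0.17) and Cryzl1 (0.18), and Phgdh had Glt1d1 (0.14), Plek2 (0.15) and Fstl1 (0.18). Shmt2 was followed by Psd4 (0.092), Acp6 and Stradb, Mthfd2 by Slc4a7 (0.13), Stox2 and Tmem170, Asns by Elavl2 (0.11), Ric3 and Nudt12, and Ddit3 by Rnf17 (0.13), Ubxn11 and Sertad3. Atf4 lay nearest to Rplp1 (0.033) and Shmt1 to Cdk5rap3 (0.034), as flat genes resemble many others. Of these 30 neighbours 5 were in the lists of related genes, which hold 1.17% of the genes searched. Among the 10 genes themselves the closest were Shmt1 and Atf4 (0.097), which vary least, and Psat1 and Psph (0.16), followed by Psph and Shmt2 (0.20) and Shmt2 and Mthfd2 (0.23). Asns lay nearest to Ddit3 (0.28), and Phgdh was 0.71 from its nearest, Psph. All points share the same 10 libraries, so these distances are descriptions.

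Of 2 regulators looked at beside the 10 genes, Myc, known to drive serine and nucleotide synthesis, read 90.2 and 97.4 CPM in serum, 4.4 and 4.92 in first 2i, 9.34 and 9.55 after long 2i, 80.2 and 81.7 on serum return and 11.4 and 11 in second 2i. Its level thus split by medium as those of Shmt2 and Mthfd2 did. The lowest group of Myc was first 2i, as for Mthfd2, while that of Shmt2 was long 2i. Mycn took the opposite direction, with 38.9 and 42.2 CPM in serum and 104 and 113 in first 2i. Their part in the levels of the 10 genes was not tested.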

How the data were processed

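RNA-seq libraries of mouse embryonic stem cells, 10 in 5 groups of 2, were grouped by the culture labels; replicates were numbered in accession order within a group. The deposited values are raw read counts, 1 whole number per gene and library. The authors used TopHat2 2.0.4, build mm9, HTSeq 0.5.4p5, CASAVA 1.8.2 and an unversioned DESeq2, as the submitters' processing notes list them. The strand setting, layout and annotation were not given in the sources used here. The 5 summary categories (reads aligned to more than 1 place were 33.4 to 36.5% of records) were left out, so genes with near-identical copies or overlapping neighbours are uncertain.

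Counts were fitted in R 4.3.3 with edgeR 4.0.16: filterByExpr (minimum count 10, minimum total 15; 14220 genes), TMM, and a robust quasi-likelihood model of group over all 10 libraries (5 residual degrees of freedom). P-values are two-sided, Benjamini-Hochberg adjusted over all tested genes, and called under 0.05. The 11 comparisons comprise every pair of groups and 1 interaction; those that share libraries are not independent. Each standard error is the log2 fold change over the root of F. On simulated counts for first 2i against serum (13854 genes) the test recovered 16 of 50 genes changed 1.2-fold, 41 of 50 at 1.5-fold, 39 of 50 at 2-fold and 47 of 50 at 4-fold, with 11 false calls.

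The 10 genes and the lists were chosen with earlier results of these data known. Genes named from the lists are some of the 3 largest called changes per list and comparison (those averaging 5 CPM or more in the higher group), not all of them; which of these to name, their values in other groups and the CCAAT search were chosen after values were seen. The symbol Dele1 was matched through RefSeq synonyms. Sequences are from RefSeq, GRCm38.p6, matched by symbol for 10 of 10 genes. Alternatives were RLE normalization, no filter, the Wald test of DESeq2 1.42.0, the title series as a block, a fit of only the groups compared, leaving out each library, and, added after seeing the data, Rn45s left out.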

Additional observations from a re-analysis of the deposited data

Results flagged for a closer look

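The response to 2i differed between the first and the second exposure, by the interaction term, in 7 of the 10 genes by edgeR, where 39.4% of all tested genes were called. The second minus the first response on the log2 scale was -0.257 for Phgdh, -0.288 for Psat1, -0.35 for Psph, -0.844 for Asns, -0.666 for Trib3, -0.85 for Ddit3 and 0.368 for Atf4. The call for Phgdh (adjusted p = 0.0458) was lost with RLE normalization (0.0525), with DESeq2 (0.116) and without replicate 1 of serum (0.133), replicate 1 of second 2i (0.175), replicate 2 of first 2i (0.202) or replicate 2 of serum return (0.227). The response of Psat1 passed in both exposures with opposite signs (0.12 the first time and -0.17 the second), the first of them lost without replicate 1 of first 2i (adjusted p = 0.117) or replicate 2 of serum (0.101). Groups of 2 libraries are too small for a test of single outlying libraries.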

How the results depend on the processing

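Each of the 10 genes in 11 comparisons gave 110 values per setting. Direction and side of the threshold were kept in 107 with DESeq2, 106 with RLE normalization, 107 without a filter, 108 with only the groups compared and 110 without Rn45s, and in 432 of 480 values with 1 library left out. No called value changed sign. The genes called in second against first 2i went from 6 to 3 or 4 when 1 library was left out, and to 3 without replicate 2 of either group. Fewer of all tested genes were called in second against first 2i in these fits too. Whether the 10 genes dropped more than the rest was not tested. No excess of the 10 genes over all tested genes is read from that comparison. Values that changed sign were near 0 and not called. Shmt1 in second against long 2i was 0.00315 with RLE, 0.00323 without a filter, 0.00366 with DESeq2 and 0.00538 with only the groups compared. With 1 library left out, the ranges of the values that changed sign in some fit were -0.0268 to 0.0193 for this result (0.00775 without replicate 2 of long 2i), -0.0549 to 0.046 for Psph in second 2i against serum (0.0371 without replicate 1 of serum), -0.103 to 0.0508 for Ddit3 in serum return against first 2i (0.00706 without replicate 2 of serum return), -0.0191 to 0.0399 for Atf4 in second against long 2i (-0.0131 without replicate 1 of second 2i), -0.168 to 0.034 for Trib3 in long 2i against serum, -0.0563 to 0.00654 for Shmt1 in serum return against first 2i, and -0.11 to 0.00862 for Shmt2 in the interaction. The cause was not tested. With 1 library left out, the lone library of a group is assumed to vary like the others. All genes called in serum return against serum numbered 4407, and 2437 to 3333 with 1 library left out.

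The titles form a pair of series with 1 library of each group, whose meaning the labels do not state. Deviations from the group means correlated at 0.0994 to 0.168 between groups (9 of 10 pairs over 0.1), which is weak but positive in every pair. A shared effect of the series is thus not excluded. The main fit left the series out, and the block is given as an alternative. With the series as a replicate block 7 more values passed and no call was lost: Phgdh in serum return against serum (adjusted p = 0.00158), Psph in first 2i against serum (0.0308), Trib3 and Atf4 in second 2i against serum return (0.00528 and 0.0109), Atf4 in serum return against long 2i (0.0148), Psat1 in second against first 2i (0.00144) and Mthfd2 in the interaction (0.00407). With 2 libraries a group small changes can be missed: on simulated counts for first 2i against serum 16 of 50 changes of 1.2-fold were recovered. Those genes were drawn from all levels, low ones included, so this share is not the limit for the 10 genes, which had at least 208 counts per library. Among them changes of 1.09-fold were called in first 2i against serum (Psat1 and Shmt1), though these calls were lost in some other fits.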
